A study of Mus musculus with 4 samples.

Results

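The genes for the proteins of the cytosolic ribosome were followed in myeloid-derived suppressor cells (MDSCs), a mixture of immature myeloid cells known for suppressing T cells, sorted from mouse tumours. Members were the protein-coding genes of the GENCODE M21 annotation whose symbol is Rpl or Rps with a number, together with Rplp0, Rplp1, Rplp2 and Rpsa. Rps6k kinases, Rps19bp1 and the tissue-restricted or atypical relatives Rpl7l1, Rpl22l1 and Rpl3l were left out. The annotation held 88 such genes, and 81 of them had a row among the 17476 genes of the count table. All 81 passed the filter on low counts that left 14239 genes for testing. They divided into 49 genes of the large subunit and 32 of the small subunit. The other 7 (Rpl10-ps3, Rps27rt, Rpl10l, Rpl36a-ps1, Rpl36-ps4, Rpl9-ps6 and Rps12-ps3) were not analysed here.

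The libraries compared MDSCs from Trem2 mutant mice with MDSCs from wild-type (WT) C57BL/6 mice, and there were 2 libraries of each. The Trem2 protein is a receptor for lipids on myeloid cells. The labels do not describe the mutation. In both groups the MDSCs were differentiated in vitro from bone marrow and injected into male mice of the immunodeficient NRG strain. The recipients had been challenged at 6 weeks of age with subcutaneous TRAMP-C1 cells, a mouse prostate cancer line, received the MDSCs 4 weeks later, and were killed 6 h after the injection. Tumours were digested for 45 minutes and sorting kept CD45+ CD11b+ GR1+ cells. That gate carries no marker of the injected cells, so the recipient's own cells could be among them. The libraries are named by their column numbers: mutant 1, mutant 3, WT 1 and WT 2. The labels do not say whether they came from separate mice or cultures, and p-values therefore measure the spread between these libraries, which may be technical.

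Each ribosome joins a large and a small subunit, and each subunit carries one copy of most of its proteins on a scaffold of ribosomal RNA. The small subunit holds the mRNA and decodes it. The large subunit makes the peptide bond, and a flexible stalk at its edge, built on the protein uL10 (Rplp0) with uL11 (Rpl12) beside it and carrying dimers of P1 (Rplp1) and P2 (Rplp2), recruits and activates the translation factors that hydrolyse GTP. Ribosomal protein mRNAs are abundant and short, and most begin with a cytosine followed by a run of pyrimidines, the 5′ terminal oligopyrimidine (TOP) element. Through this element mTORC1 and the RNA-binding protein Larp1 control their translation together.

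Promoter windows from RefSeq (GRCm38.p6) were available for 60 of the 81 members, and the TOP-like letters CTTTC were searched within 40 bases on either side of the annotated start. On the gene's own strand they occurred in 30 of 60 members (50%), against 11.9% of 27025 genes with a window. On the other strand they occurred in 7 members (11.7%), against 11.5% of all genes. The longer CTCTTTC, which contains CTTTC, occurred on the gene's strand in 11 members (18.3%) and in 1.27% of all genes. The letters CCGGAAG, an ETS-type motif, occurred on either strand in 14 members (23.3%) and in 5.20% of all genes. TATAAA occurred on the gene's strand in 3 members (5%) and in 3.51% of all genes. The windows below belong to some of the members whose level passed the test between genotypes, or, for Rplp2, that form the stalk with them. They were picked by hand, so they cannot link these letters with a direction of change. Rplp1, which also passed, had no window and so is not among the 60. Rps27l, Rps19, Rps15 and Rps13 passed too, and no window of theirs is shown. Capitals mark TATAAA in Rplp0 and CTTTC in the others, and each line gives 30 bases of the gene's strand, 5′ to 3′.
Rplp0: gcctggttctccTATAAAaggcacacgcgg
Rplp2: cgtcagcgtcttcCTTTCgccgccggacgc
Rpl12: tccgtcttttcggCTTTCggctcggaggag
Rps21: cacgagctacttcCTTTCtgcgctctcgct
Rpl13: tgacgtcacttccCTTTCgcctgattttga
Rpsa: ccggccgcccgtcCTTTCgcgctacccggg
All 6 lie on the plus strand, at chr5:115559472-115559501 for Rplp0, chr7:141447638-141447667 for Rplp2, chr2:32961709-32961738 for Rpl12, chr2:180257404-180257433 for Rps21, chr8:123102326-123102355 for Rpl13 and chr9:120127775-120127804 for Rpsa. Counting the annotated start as position 1, the capitals begin at 1 in Rplp2, 11 in Rpl12, 23 in Rpsa and 18 in Rplp0, and at -11 in Rpl13 and -32 in Rps21, where position -1 is the base before the start. A match describes these letters in this window and not a site in use.

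Total counts were 10306674 and 9820893 reads in mutant 1 and mutant 3, against 8037733 and 8077966 reads in WT 1 and WT 2. RNA had been depleted of ribosomal RNA. The RNA Gm42418, which overlaps ribosomal RNA sequence, took 13.9% and 0.418% of reads in the mutant libraries and 1.04% and 0.258% in the WT libraries. Trem2 RNA was lower in the mutant, which does not identify the mutation. Trem2 had 22.9 and 21.0 CPM (counts scaled to a common library size, here by the trimmed mean of M-values, TMM) in the mutant libraries and 44.2 and 52.2 CPM in the WT libraries (log2 fold change -1.14, edgeR quasi-likelihood adjusted p = 0.00157). The CD45 gene Ptprc had 1328 and 1363 CPM in mutant and 1114 and 1162 CPM in WT libraries, and the CD11b gene Itgam 653 and 643 CPM against 420 and 431 CPM. Of the genes for GR1 antigens, Ly6g had 144 and 123 CPM in mutant libraries and 5.66 and 7.22 CPM in WT libraries. Ly6c2 had 378 and 282 CPM in mutant libraries and 26.9 and 24.8 CPM in WT libraries. Granulocyte markers moved with genotype: 9 of 10 markers of immature granulocyte granules rose and 0 fell, with summed levels of 19118 and 13838 CPM in mutant against 2602 and 2419 CPM in WT libraries. Of 8 markers of mature neutrophils 7 rose and 0 fell, with sums of 19519 and 18131 CPM against 5933 and 6041 CPM. The macrophage list (4 of 8 rose, 0 fell) summed to 1583 and 1360 CPM in mutant and 1401 and 1524 CPM in WT libraries. The part of these markers in the ribosomal protein results was not tested, and in bulk RNA fewer cells of a type and less RNA per cell cannot be told apart.

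Ribosomal protein genes took a smaller share of reads in the Trem2 mutant, and 1 gene, Rplp0, went the other way. Reads of the 81 members made up 0.926% and 0.954% of protein-coding reads in the mutant libraries, against 1.27% and 1.20% in the WT libraries. The 95% exact binomial intervals, which cover counting error only, were 0.920% to 0.933% and 0.947% to 0.960% in mutant 1 and mutant 3, and 1.26% to 1.28% and 1.20% to 1.21% in WT 1 and WT 2. Both mutant libraries lay below both WT libraries. The means were 0.940% ± 0.0195 in mutant and 1.24% ± 0.0456 in WT libraries (SD, n = 2 each), a difference of -0.296 percentage points. The exact two-sided permutation p was 0.333, the smallest that 2 libraries against 2 can give. The protein-coding total itself contains the granulocyte genes that rose, and with the listed granulocyte markers out of it the difference was -0.272 percentage points. The other genes that rose stayed in that total, and their part in the share was not tested. On the TMM scale, which does not depend on that total, the members summed to 8720 and 8932 CPM in mutant libraries and 9868 and 9587 CPM in WT libraries. In relative terms this difference was smaller than that of the share.

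Gene by gene, 1 member rose (1.23%) and 9 fell (11.1%) at an adjusted p under 0.05 over all genes tested. Among all 14239 genes the same test called 9.55% higher and 3.60% lower. Without adjustment, 2 members were higher and 21 lower at an edgeR p under 0.05. The share of all genes at that unadjusted threshold was not computed, so these 2 counts have no baseline here. None of the called members changed by 2-fold or more. In 45 members (55.6%) both mutant libraries lay below both WT libraries, against 31.7% of all genes, and in 7 (8.64%) both lay above, against 28.9% of all genes. The libraries overlapped in the other 29 members. The log2 fold change was below 0 in 67 of 81 members and in 52.7% of all genes. Its median was -0.16 over the members and -0.02 over all genes, and it ranged from -1.63 (Rpl39l) to 0.65 (Rplp0), with a median SE of 0.0922 per gene.

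**Figure D1:**
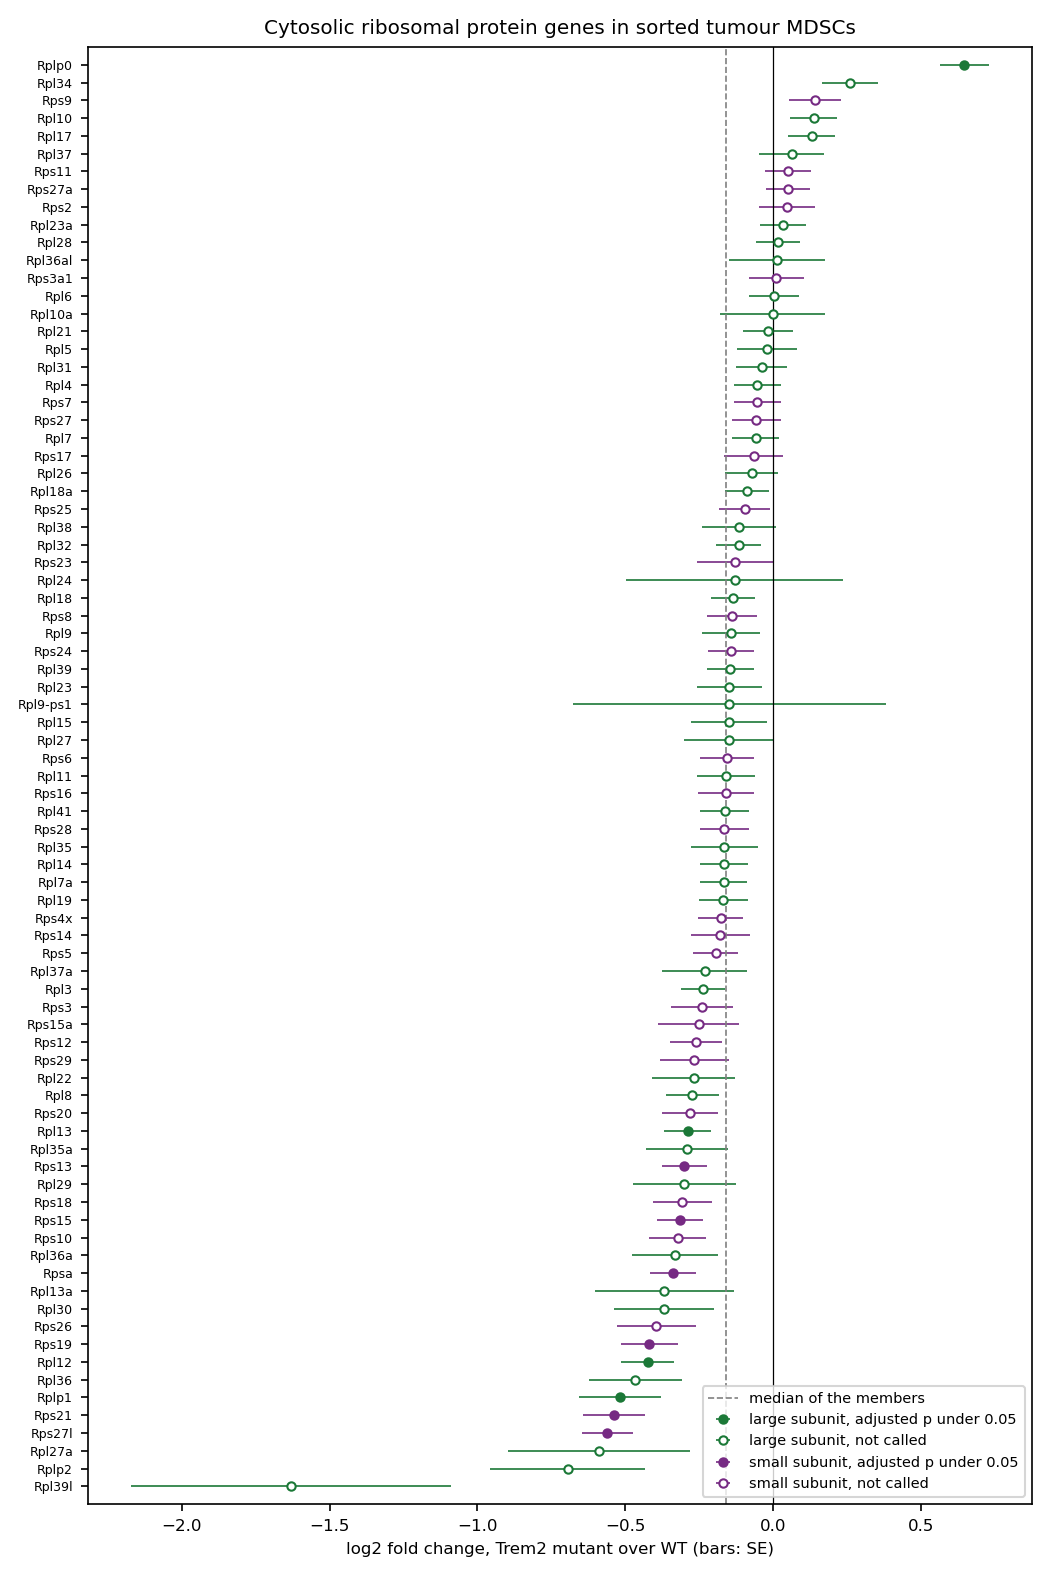
Each row is one of the 81 members, with its log2 fold change of Trem2 mutant over WT on the horizontal axis and its standard error as a bar. Green marks the large and purple the small subunit, filled points have an adjusted p under 0.05, and the dashed line is the members' median of -0.16. Rplp0 stands alone at 0.65 on the right, and the 9 filled points on the left lie between -0.56 and -0.29.

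The members were also set beside other genes with short mRNAs, since their own are short (median 680 nt, from 271 to 3706 nt). The 820 other protein-coding genes with an mRNA of up to 1 kb had a median log2 fold change of -0.10, with 9.76% called higher and 4.02% lower. The 64 members of that length had a median of -0.16, with 0 called higher and 7 lower. The 293 other short genes with a mean level from 20 to 400 CPM, the range that held 76 of the members, had a median of -0.05. Of these genes 15.7% were called higher and 7.51% lower, against 1.32% and 11.8% of the 76 members. The part of mRNA length in the members' shift was not tested.

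**Figure D2:**
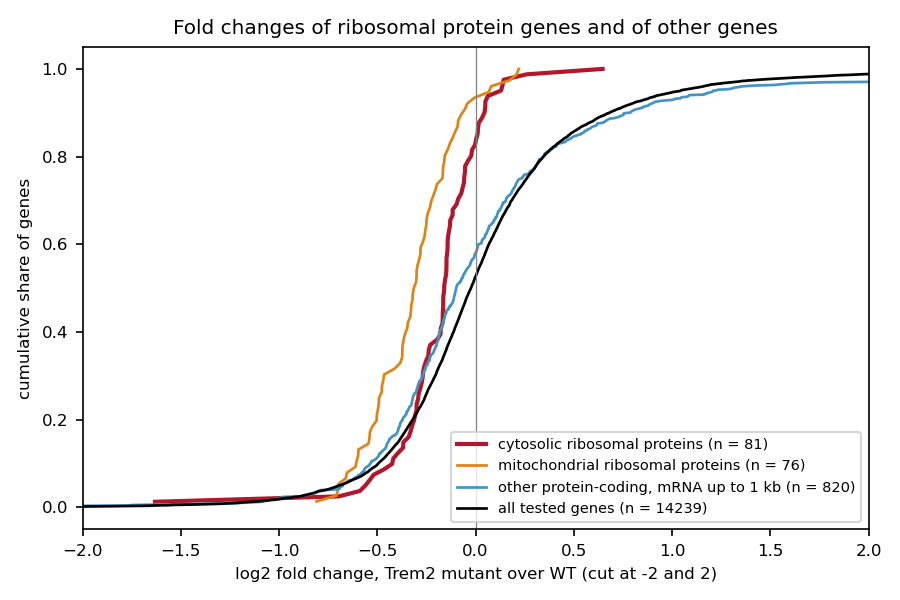
Cumulative share of genes (vertical axis) against log2 fold change of Trem2 mutant over WT (horizontal axis, cut at -2 and 2) for the 81 cytosolic ribosomal protein genes, 76 mitochondrial ribosomal protein genes, 820 other protein-coding genes with an mRNA of up to 1 kb and all 14239 tested genes. The red curve of the cytosolic members is steep around its median of -0.16 and reaches the far right sooner than the curves of short genes and of all genes, and the mitochondrial curve lies to its left with a median of -0.31.

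Within the stalk, member genes moved in opposite directions. Rplp0, the stalk base that anchors the P1 and P2 dimers, had 456 and 430 CPM in mutant 1 and mutant 3, against 280 and 286 CPM in WT 1 and WT 2. Both mutant libraries lay well above both WT libraries, and each pair agreed closely. The means were 443 ± 18.5 CPM in mutant and 283 ± 4.11 CPM in WT libraries (SD, n = 2 each). Rplp0 (ENSMUSG00000067274, chr5:115559467-115563727, plus strand, GRCm38) thus rose 1.56-fold (log2 fold change 0.65, SE 0.0836, edgeR adjusted p = 0.00301). It shares no exon bases with another annotated gene. Its reads were 5.23% and 4.81% of all member reads in the mutant libraries and 2.84% and 2.98% in the WT libraries.

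The partners of Rplp0 did not follow it. Rplp1, which encodes P1, had 221 and 168 CPM in the mutant libraries and 300 and 257 CPM in the WT libraries. The groups did not overlap, and the fall was -0.52 on the log2 scale (SE 0.139, edgeR adjusted p = 0.0477, just inside the threshold). Without mutant 3 it was -0.32 and did not pass (adjusted p = 0.0523), and without mutant 1 it was -0.72. Rpl12, the uL11 protein at the stalk's foot, had 182 and 162 CPM against 237 and 225 CPM, and it fell by 0.42 on the log2 scale (SE 0.0899, edgeR adjusted p = 0.0211). Rplp2, which encodes P2, had 110 and 54.4 CPM in the mutant libraries and 132 and 134 CPM in the WT libraries. Both mutant libraries lay below WT, but mutant 1 was nearer to WT than to mutant 3, and the difference did not pass (log2 fold change -0.70, SE 0.263, edgeR adjusted p = 0.124). Without mutant 1 the value for Rplp2 was -1.28 (adjusted p = 7.34e-07), and it rests on mutant 3.

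Ratios of reads within a library do not depend on scaling between libraries. Rplp0 had 1.38 and 1.93 times the reads of Rplp1 and Rplp2 together in the mutant libraries, against 0.648 and 0.732 times in the WT libraries. Its ratio to Rpl12 was 2.50 and 2.66 in mutant and 1.18 and 1.27 in WT libraries. Both ratios were higher in each mutant library than in each WT library, with an exact two-sided permutation p of 0.333, the smallest possible for 2 against 2. The ratio of Rplp1 to Rplp2 was 2.01 and 3.09 in mutant libraries and 2.27 and 1.92 in WT libraries, which overlapped.

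**Figure D3:**
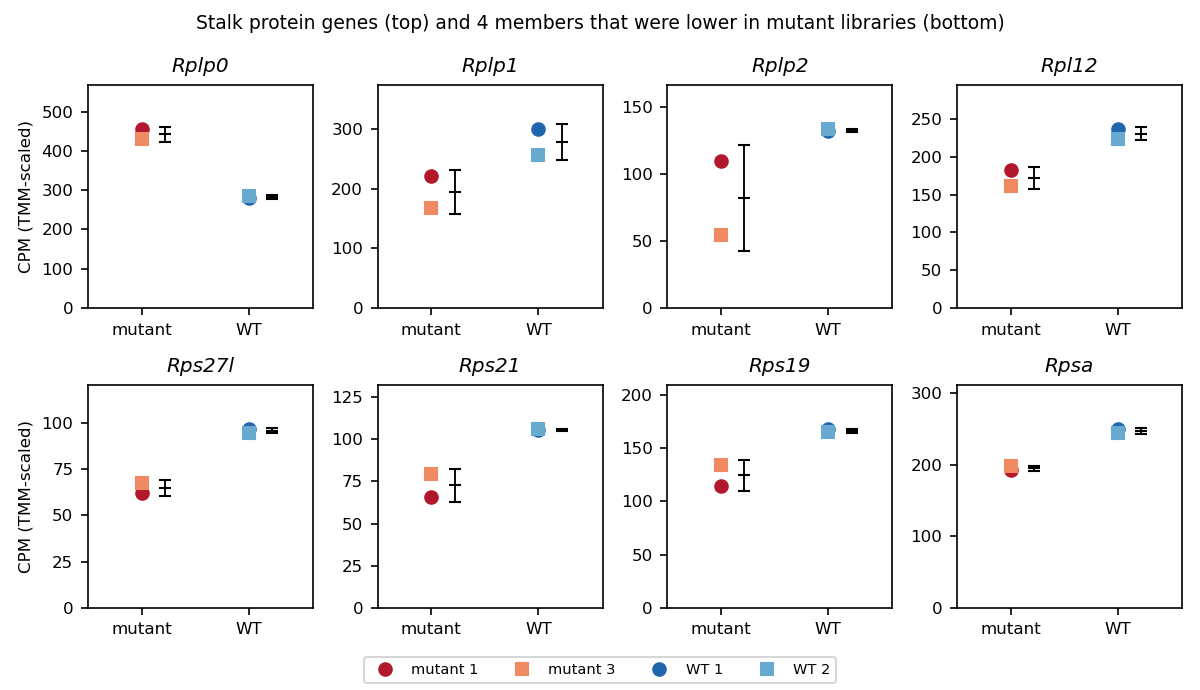
TMM-scaled CPM (vertical axes, from 0) of the stalk genes Rplp0, Rplp1, Rplp2 and Rpl12 in the top row and of Rps27l, Rps21, Rps19 and Rpsa in the bottom row, with 1 coloured point per library, mutant on the left and WT on the right, and bars for the mean ± SD of 2 libraries. Rplp0 is above WT in both mutant libraries, the other 7 genes are below WT in both, and the bar of Rplp2 in mutant cells is wide because mutant 1 had 110 and mutant 3 had 54.4 CPM.

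In the rest of the large subunit 1 gene passed. Rpl13 (eL13) had 77.9 CPM in both mutant libraries against 96.5 and 93.9 CPM in the WT libraries, a fall of 0.29 on the log2 scale (SE 0.0782, edgeR adjusted p = 0.0492, just inside the threshold). Rpl5 and Rpl11, which join the 5S ribosomal RNA and bind Mdm2 when assembly fails, did not pass. Rpl5 had 70.3 and 82.5 CPM in mutant and 75.7 and 79.6 CPM in WT libraries, which overlapped. Rpl11 had 89.5 and 107 CPM in mutant libraries and 110 CPM in both WT libraries. None of 9 proteins that line the peptide exit tunnel or its mouth (Rpl4, Rpl17, Rpl19, Rpl22, Rpl23a, Rpl26, Rpl31, Rpl35 and Rpl39) passed, and their median log2 fold change was -0.07. Rpl34 was the member nearest to Rplp0 at the upper end, with 83.9 and 96.5 CPM in mutant and 75.1 and 75.6 CPM in WT libraries (log2 fold change 0.26, edgeR adjusted p = 0.112). Over the whole large subunit 1 gene rose and 3 fell, with a median of -0.15.

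The small subunit had 6 genes that fell and 0 that rose among 32, with a median log2 fold change of -0.18. Rps27l, a paralog of Rps27 that p53 is known to induce, had 61.9 and 67.7 CPM in the mutant libraries, against 96.6 and 94.8 CPM in the WT libraries. It was 1.48-fold lower (log2 fold change -0.56, SE 0.0858, edgeR adjusted p = 0.00586), and the groups lay far apart relative to the spread of either. Its gene (ENSMUSG00000036781) lies at chr9:66946086-66949516 on the plus strand, GRCm38. Rps21, a small protein found in eukaryotic ribosomes, had 65.5 and 79.6 CPM in mutant and 105 and 106 CPM in WT libraries and was 1.45-fold lower (log2 fold change -0.54, SE 0.105, edgeR adjusted p = 0.0153).

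Rps19 is the gene most often mutated in Diamond-Blackfan anaemia, an inherited red cell failure in humans, and its protein sits in the head of the subunit. It had 114 and 135 CPM in mutant libraries and 168 and 165 CPM in WT libraries, and fell by 0.42 on the log2 scale (edgeR adjusted p = 0.0283). Rpsa, the uS2 protein also known as the laminin receptor, had 193 and 198 CPM in mutant libraries and 250 and 245 CPM in WT libraries, a fall of 0.34 (edgeR adjusted p = 0.0277). In both genes the mutant libraries lay below both WT libraries, and the pairs differed little within a genotype except for Rps19 in the mutant.

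Rps15, a head protein near the decoding site, had 160 and 156 CPM against 192 and 200 CPM in WT libraries (log2 fold change -0.31, edgeR adjusted p = 0.0371). Rps13, which lies at the interface with the large subunit, had 91.4 and 88.2 CPM against 112 and 109 CPM in WT libraries (log2 fold change -0.30, edgeR adjusted p = 0.0413). Both were lower in each mutant library than in each WT library. Rps15 was the 1 gene that passed among 6 at the mRNA entry and decoding sites, the others being Rps2, Rps3, Rps9, Rps23 and Rps27a, and the median of the 6 was -0.04. Of 9 listed genes mutated in human Diamond-Blackfan anaemia Rps19 alone passed. All 9 had a log2 fold change below 0, as had 82.7% of all members, and their median of -0.16 was that of all members. The read ratio of large to small subunit genes was 1.27 and 1.20 in the mutant libraries and 1.17 and 1.16 in the WT libraries.

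Most calls of lower members needed both WT libraries, while the fold changes behind them moved little. With WT 1 left out 0 members were called lower and with WT 2 left out 1 was (Rps27l), against 92 of 15033 and 129 of 14988 genes in all. Without mutant 3 the count was 17, against 912 of 14719 genes, and without mutant 1 it was 14, against 600 of 14726 genes. The 513 lower calls over all genes thus moved the same way as those of the members. Without WT 1 the log2 fold changes of Rps27l, Rps21 and Rps19 were -0.55, -0.55 and -0.41. Rplp0 rose in each of these 4 fits, and without mutant 1 a second member, Rpl34, rose with it (log2 fold change 0.37, adjusted p = 0.0153). With 1 library left out the members' median stayed between -0.17 and -0.11. The fits that leave 1 library in a group take its spread from the other group, and the WT libraries were the closer pair. The part of this in the counts was not tested. DESeq2 called 1 member higher and 5 lower, against 1063 and 198 of 14239 genes in all.

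Paralogous members could be compared within a library. Rps27l had 0.492 and 0.489 reads for each read of Rps27 in mutant libraries, against 0.693 and 0.698 in WT libraries. The values within each genotype nearly coincided, the exact two-sided permutation p was 0.333, and Rps27 itself had 126 and 139 CPM in mutant and 139 and 136 CPM in WT libraries, which overlapped. Rpl36al had 0.561 and 0.482 reads for each read of its X-linked relative Rpl36a in mutant libraries and 0.407 and 0.406 in WT libraries, again without overlap and with a p of 0.333 (exact permutation). Neither gene of that pair passed the test on its own. Rpl39l, a relative of Rpl39 best known from the testis, had 2 and 5 reads in the mutant libraries and 11 and 12 in the WT libraries, and did not pass (edgeR adjusted p = 0.0893).

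**Figure D4:**
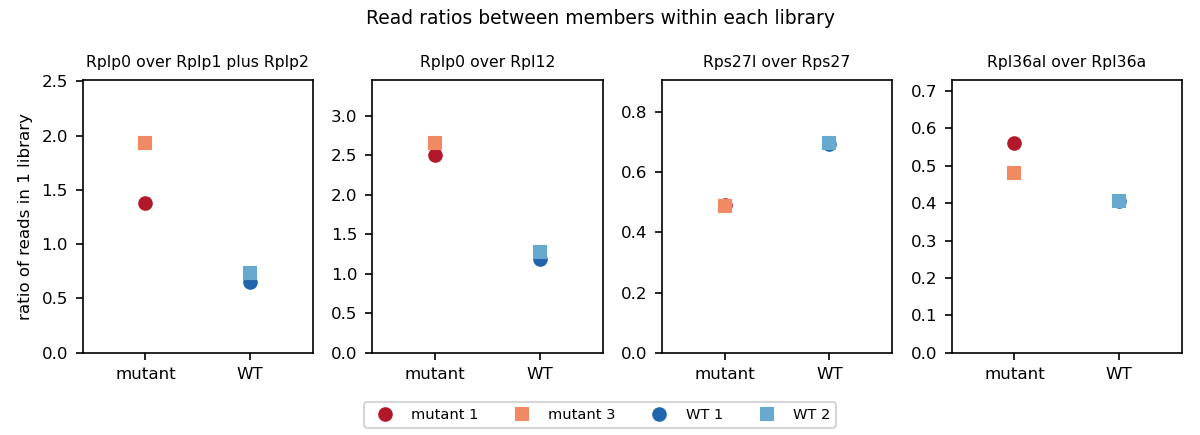
Ratio of reads between members within each library (vertical axes, from 0) for Rplp0 over Rplp1 plus Rplp2, Rplp0 over Rpl12, Rps27l over Rps27 and Rpl36al over Rpl36a, with mutant libraries on the left and WT libraries on the right of each panel. The groups do not overlap in any of the 4 panels, and the ratio is lower in the mutant for Rps27l over Rps27 alone.

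Of the relatives that the definition of members leaves out, Rpl22l1 had 0.285 and 0.167 reads for each read of Rpl22 in mutant libraries and 0.137 and 0.189 in WT libraries, which overlapped. Rpl7l1 (log2 fold change -0.23) and Rpl3l (0.40) did not pass. Fau, which encodes a small subunit protein under a symbol of another form, had 123 and 119 CPM in mutant and 148 and 142 CPM in WT libraries (log2 fold change -0.26, edgeR adjusted p = 0.0641). Rack1, a scaffold on the small subunit's head, had 305 and 284 CPM in mutant and 302 and 308 CPM in WT libraries, which overlapped.

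The X-linked members were read beside a sex difference between the groups. Xist, the RNA that coats the silenced X chromosome of female cells, averaged 905 ± 106 CPM in mutant and 0.273 ± 0.0784 CPM in WT libraries (SD, n = 2 each), so that the sex of the cells cannot be told apart from genotype. None of the 4 X-linked members passed. Rpl10 had 135 and 130 CPM in mutant and 117 and 124 CPM in WT libraries, and its libraries did not overlap (log2 fold change 0.14). The log2 fold changes of Rpl36a, Rps4x and Rpl39 were -0.33, -0.18 and -0.14. That of Rpl36a was -0.14 without mutant 1, and without mutant 3 it was -0.52 and passed (edgeR adjusted p = 0.0194).

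Levels per length differed widely among the members. The median was 130 CPM per kb of mRNA in mutant and 148 CPM per kb in WT libraries. Rplp1 had the highest mean in both groups, with 442 and 337 CPM per kb in the mutant libraries and 601 and 515 CPM per kb in the WT libraries. In mutant 3, however, Rps27 (402 CPM per kb), Rps28 (363), Rps14 (360), Rps9 (359) and Rps12 (355) stood above it. The means of Rps27 were 383 and 399 CPM per kb, of Rps12 346 and 415, of Rps28 346 and 388 and of Rps14 335 and 379, in mutant and in WT libraries. Rps15 (316 and 393 CPM per kb) and Rps29 (323 and 389) lay in the same range, and the spread between libraries does not order these genes. At the low end, Rpl39l had 0.706 CPM per kb in mutant and 2.28 CPM per kb in WT libraries, and Rpl24 had 2.43 and 2.66 CPM per kb. Rpl24 shares 47.0% of its exon bases with the gene Gm28037 and Rpl13a shares 36.9% with other genes, so that the counting could withhold or split their reads. Rpl39l shares 0%. Rpl35 shares 71.15%, with genes of the other strand, and had 48.75 and 54.6 CPM per kb in mutant and WT libraries. Rpl23a shares 62.34% and had 178 and 174 CPM per kb. The part of shared bases in the levels was not tested. Many members have processed pseudogene copies, and the 34 ribosomal protein pseudogenes with a row held 311 and 353 reads in mutant libraries and 324 and 380 reads in WT libraries.

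Among themselves the members varied more between the mutant libraries than between the WT libraries. The same spread over other genes was not computed, so this cannot be called particular to the members. Over the 77 members with at least 400 reads in all, the log2 ratio of mutant 3 to mutant 1 ran from -1.18 to 0.54 with an SD of 0.287, and that of WT 2 to WT 1 from -0.40 to 0.11 with an SD of 0.0979. Rpl27a, a large subunit protein, had 57.5 and 25.4 CPM in mutant 1 and mutant 3 and 66.5 and 57.5 CPM in WT 1 and WT 2. It was low in mutant 3, while mutant 1 overlapped WT, and Rplp2 was likewise lowest in mutant 3. Rpl36 (45.8 and 32.2 CPM in mutant, 54.2 and 53.3 CPM in WT) and Rps26 (78.1 and 58.1 CPM in mutant, 89.9 and 89.1 CPM in WT) were also lower in mutant 3 than in mutant 1, while Rpl30 was higher in mutant 3, with 41.4 and 60.3 CPM in the mutant libraries and 70.7 and 61.0 CPM in the WT libraries. None of these genes passed the test between genotypes. Across the 77 members the ratio of mutant 3 to mutant 1 went with the GC content of the mRNA (Pearson's r = -0.35, Spearman's rho = -0.43), and that of WT 2 to WT 1 did so less (r = -0.09, rho = -0.02). These are correlations across genes that share their libraries, genes are not independent replicates, and the part of GC content was not tested. The log2 fold change between genotypes had an r of -0.10 with GC content over the same members.

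**Figure D5:**
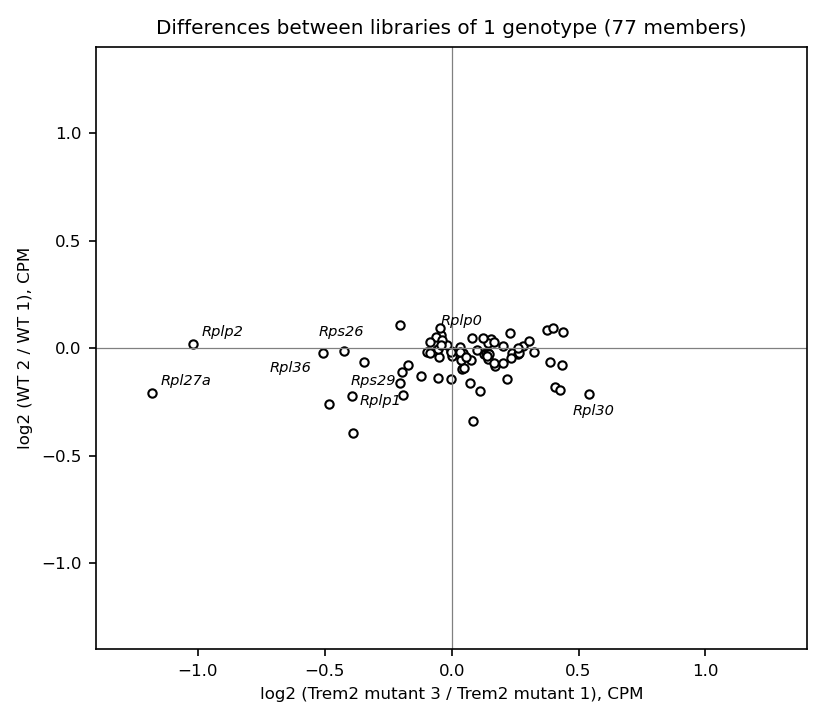
Each of 77 members is a point, with the log2 ratio of CPM in mutant 3 over mutant 1 on the horizontal axis and of WT 2 over WT 1 on the vertical axis, both on the same scale. The cloud is wide along the mutant axis (-1.18 to 0.54) and narrow along the WT axis (-0.40 to 0.11), with Rpl27a and Rplp2 farthest to the left.

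The members were also divided by properties of the gene. Those with CTTTC on the gene's strand had a median log2 fold change of -0.17 and those without it -0.15. The 14 members with CCGGAAG on either strand had a median of -0.09 and those without it -0.17. The 3 members with TATAAA, Rplp0 among them, had a median of 0.05 and those without it -0.16. The 30 members that hold a snoRNA gene within their bounds (0 rose, 4 fell) had a median of -0.15, and the other 51 (1 rose, 5 fell) one of -0.16. The 43 members that share no exon bases with another annotated gene (1 rose, 5 fell) had a median of -0.16, as had the 22 without an annotated pseudogene named after them (0 rose, 2 fell). Rplp1, Rps27l, Rps21, Rps19 and Rps15 are among the genes with no shared exon bases, whereas Rpl12, Rpl13, Rps13 and Rpsa share between 3.23% and 5.97% of theirs with snoRNAs, microRNAs or other genes.

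Other genes of translation were read from lists drawn up by function. For each list, the shares over all 14239 genes are 9.55% called higher, 3.60% called lower and 52.7% below 0. Single calls in a list are not read as a result about that list. Of 22 elongation factors and other TOP mRNAs 1 rose and 1 fell, with a median log2 fold change of -0.10. Tpt1, a TOP mRNA for a growth-related tumour protein, rose, with 500 and 468 CPM in mutant and 382 and 394 CPM in WT libraries (edgeR adjusted p = 0.0492). Npm1, a nucleolar chaperone of ribosome assembly, fell, with 73.7 and 76.8 CPM in mutant and 102 and 95.5 CPM in WT libraries (edgeR adjusted p = 0.0213).

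Of 26 initiation factors 1 rose and 2 fell, with a median of -0.14. Eif1, which guards start codon choice, rose (252 and 272 CPM in mutant, 187 CPM in both WT libraries; edgeR adjusted p = 0.00852). Eif3g, a subunit of the scaffold factor eIF3, fell by 0.50 on the log2 scale, and Eif6, which keeps free large subunits from joining, fell by 0.37. The 5 genes that passed in these lists had no overlap between mutant and WT libraries. Among all genes 28.9% lay above and 31.7% below WT without overlap. The same libraries gave the calls, so this adds nothing to them.

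Of the ribosome assembly factors, 37 of 39 had a log2 fold change below 0, against 52.7% of all genes. Of the 39, 4 fell and 1 rose, and the median was -0.27. Heatr1, a subunit of the early small subunit processome, had 102 and 107 CPM in mutant and 161 and 155 CPM in WT libraries (log2 fold change -0.60, edgeR adjusted p = 0.00309). Utp15 and Utp20 of the same particle fell by 0.56 and 0.49 and Nhp2, of the pseudouridine-guiding snoRNPs, by 0.45. Bysl, a late small subunit factor, rose by 0.44 and is named outside the rule, after its value was seen. Of 20 genes for RNA polymerase I and its factors Polr2f, a subunit shared by the nuclear polymerases, fell (14.3 and 14.8 CPM in mutant, 25.0 and 21.6 CPM in WT), 0 rose, and the median was -0.12.

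Of 25 genes of mTORC1 signalling and TOP control, Rptor, the mTORC1 scaffold, fell (45.9 and 46.2 CPM in mutant, 64.0 and 63.2 CPM in WT; edgeR adjusted p = 0.0142), Max, the partner of Myc, rose (108 and 106 CPM in mutant, 75.5 and 76.1 CPM in WT; edgeR adjusted p = 0.00628) and 23 did not pass, with a median of 0.01. Myc itself had 39.4 and 27.6 CPM in mutant and 20.6 and 23.9 CPM in WT libraries and did not pass (edgeR adjusted p = 0.0700). Of 76 genes for the mitochondrial ribosome, a separate set of proteins made in the cytosol, 5 fell (Mrpl52, Mrps17, Mrps2, Mrpl38 and Mrpl2) and 0 rose, with a median of -0.31. Mrpl52 had 23.0 and 20.6 CPM in mutant and 36.3 and 32.6 CPM in WT libraries. Whether the median of the mitochondrial genes differed from that of the cytosolic genes was not tested.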

How the data were processed

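The deposited file gives, for each Ensembl gene, the authors' raw counts (whole numbers). FastQC, STAR 2.5.2a, DESeq2 and the build GRCm38 (mm10) appear in the submitters' processing notes. How reads were counted, with which strand setting and which annotation, the labels do not say. The lowest gene total in the deposited table is 11 reads. GENCODE M21 names, classes and positions matched 17422 IDs and not the other 54. The mutant columns are numbered 1 and 3, and 3 matches no label number, so each column was used as a library of its group.

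The test was the quasi-likelihood F test of edgeR 4.0.16 in R 4.3.3 (filterByExpr, TMM, default glmQLFit, two-sided glmQLFTest, genotype as the only term), with Benjamini-Hochberg adjustment over 14239 genes at 0.05. There were 2 residual and 5.71 prior degrees of freedom and a common biological coefficient of variation of 0.106. Standard errors are the log2 fold change over the root of F. CPM per kb used the principal transcript. GC content came from the same transcript. Shares and ratios were compared by exact permutation.

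Members and lists were chosen with earlier results of these data known. Named by rule were the called members with the largest changes (8 per direction), the 5 with the most reads per kb, stalk proteins, Rpsa, X-linked and paralogous members, Rpl5 and Rpl11, comparators, and up to 4 genes of lowest p per list. Rpl13, Rpl27a, Rpl34, Rps26, Rpl36, Rpl30, Rpl24, Rpl13a, Rps9, Rpl17, Rps29, Mrpl2 and Bysl were named after their values were seen. Marker lists covered myeloid cells and other cells of the tumour, of which fibroblasts, epithelial and erythroid cells should not pass the gate. Besides those in the results, monocytes (4 of 5 rose), eosinophils (4 of 4 tested), fibroblasts (3 of 4), erythroid cells (3 of 4) and cycling cells (3 of 5) had 0 that fell; B and T cells had 0 of 4 called, and epithelial cells 1 of 2 that fell. Their summed levels ran, in CPM in mutant 1, mutant 3, WT 1 and WT 2, at 859, 719, 346 and 329 for monocytes, 152, 194, 71.4 and 70.8 for eosinophils, 441, 398, 156 and 107 for fibroblasts, 61.3, 164, 6.74 and 27.6 for erythroid cells, 244, 174, 123 and 122 for cycling cells, 8.39, 9.56, 12.8 and 13.2 for B and T cells, and 85.8, 88.4, 154 and 161 for epithelial cells. Cd3e, Cd8a, Nkg7, Krt5, Il5ra, Hba-a2 and Riok2 had no row and were not analysed here. Alternatives were other scalings, filters, tools (DESeq2 1.42.0, limma-voom 3.58.1), gene sets, a 2-fold minimum and leaving out each library in turn.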

Additional observations from a re-analysis of the deposited data

How the results depend on the processing

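Of the counts, the call of Rplp0 was lost with scaling by library totals alone (0 of 81 members higher and 61 lower, against 650 and 4365 of 14239 genes) and with a 2-fold minimum (0 higher, 0 lower). Under library totals the median over all genes was -0.40 and over the members -0.53, and under upper-quartile scaling the members' median was -0.20. The members' median lay below that of all genes under each of 15 settings tried, the reported fit among them, by a difference of -0.15 to -0.09. Another scaling moves all genes by nearly the same amount, so it could hardly change this difference (-0.136 as reported, -0.131 under library totals). DESeq2 and limma-voom used the same counts and both gave -0.136. Both ends of the range came from leaving out 1 library. DESeq2 called 5 members lower, against 198 of 14239 genes in all, where the reported fit called 9 and 513. Leaving out 1 library gave 1 to 2 members higher, 0 to 17 lower, and a median from -0.17 to -0.11. Some members not called in the reported fit changed sign: under library totals Rpl10 (-0.24), Rpl36al (-0.36), Rpl34 (-0.11), Rps9 (-0.22) and Rpl17 (-0.24), and under upper-quartile scaling Rpl36al (-0.0242). With 1 library left out Rps27 ran from -0.111 to 0.0196, Rpl5 from -0.12 to 0.10, Rpl36al from -0.0563 to 0.10 and Rpl24 from -0.33 to 0.10. Of 475 values of named members under the alternatives, 404 kept direction and side of the threshold. The 2-fold minimum apart, Rplp0 and Rps27l were called under 13 of 14 alternatives, Rpl12, Rps21 and Rps19 under 12, Rpsa under 11, Rplp1 and Rps15 under 10, Rps13 under 8 and Rpl13 under 5. The causes were not tested. Taking the granulocyte markers out of the share's denominator was chosen after seeing the data. No paired analysis was possible because the columns of the groups share only the number 1. With 2 libraries a group, no share or ratio can pass an exact test at 0.05.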
